A study of Mus musculus with 21 samples.

Results

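The genes Rtel1, Brip1, Ddx11, Pif1, Blm, Wrn, Recql4, Dhx36 and Dhx9 encode helicases that can unwind G4-DNA, and they were taken by symbol as 9 of the 24454 genes in the count table. All 9 were counted in each of 21 libraries of mouse embryonic fibroblasts (MEFs), and all 9 passed the filter on low counts that left 13719 genes for testing.

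G-quadruplex (G4) DNA is a four-stranded fold of guanine-rich sequence that stalls replication forks and polymerases, and helicases open it with energy from ATP. RTEL1, BRIP1 (also FANCJ) and DDX11 are relatives that hold an iron-sulphur cluster, PIF1 has a family of its own, and BLM, WRN and RECQL4 belong to the RecQ family. DHX36 and DHX9 are DEAH-box helicases that also work on RNA, DHX36 on G4 RNA and DHX9 on RNA-DNA hybrids.

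Rtel1 F/F MEFs, in which Rtel1 is floxed, were infected with an adenovirus for GFP (Rtel1 F/F +GFP) or for Cre (Rtel1 F/F +Cre) and collected after 96 h. A further GFP-infected group received 10 μM TMPyP4, a ligand that stabilizes G4-DNA, for the last 48 h (Rtel1 F/F +GFP +TMPyP4). CA +GFP and CA +Cre cells were Rtel1 F/F MEFs transduced with a retroviral vector for RTEL1 C1252A/C1255A, a form defective in unwinding t-loops at telomeres, and Terf1 F/F +GFP and Terf1 F/F +Cre cells carried a floxed gene for the telomere protein TRF1 (their labels read Trf1f/f). Each of the 7 groups had 3 libraries, titled as biological replicates. All groups had received an adenovirus, and each genotype is 1 set of cultured cells in which Cre acts in whichever cells the virus enters.

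The libraries held between 32069888 and 51938593 counts. Rtel1 F/F +GFP libraries stood apart from the other 12 libraries of the Rtel1 lines on the first principal component, at 55.7 to 76.4 against -47.7 to 26.4, with 52.4% of the variance. The summed level of 8 fibroblast markers, Col1a1 and Thy1 among them, was 20050 ± 988 CPM in Rtel1 F/F +GFP cells and between 8500 and 12080 CPM on average in the other 4 groups of these lines. Thy1 alone ranged from 0.02 to 269 CPM over the 21 libraries. Markers of other cell types were low, with Adgre1 at 0 in 21, Pou5f1 in 16 and Ptprc in 15 libraries. The pluripotency and neural gene Sox2, however, reached 25.8 CPM, and the leukocyte marker Cd68 lay at 1.05 to 6.38 CPM. The part of these differences in the results was not tested, and because Rtel1 F/F +GFP is the control of Rtel1 loss and of TMPyP4, both are also given against CA +GFP cells.

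The members lie on 9 chromosomes of GRCm38. The iron-sulphur members are Rtel1 on the plus strand at chr2:181319711-181356616, Brip1 on the minus strand at chr11:86058136-86201215 and Ddx11 on the plus strand at chr17:66123513-66152174. Pif1 is on the plus strand at chr9:65587150-65595967. The RecQ members are all on minus strands, Blm at chr7:80454993-80535148, Wrn at chr8:33234372-33385543 and Recql4 at chr15:76703553-76710616. Dhx36 at chr3:62468015-62507034 and Dhx9 at chr1:153455756-153487688 are on minus strands too. Recql4 overlaps 687 bases of Mfsd3 on the opposite strand, and the reads were counted by strand.

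Promoter sequence was at hand for 5 members (RefSeq, GRCm38.p6), and the 250 bases before the start were searched on both strands for a G4 motif, 4 runs of GGG or longer with 1 to 7 bases of any kind between them. The start is that of the promoter sequence, which for these 5 lies within the gene spans given above. The motif was in the windows of Rtel1 and Brip1 and not in those of Blm, Dhx36 and Dhx9, and 16.7% of 32851 such windows hold it. The windows that hold the motif are shown. Both genes were called lower after Rtel1 loss, but Rtel1 is the gene that Cre removes. Blm, without the motif, was lower too (log2 fold change -0.22) and was not called. A link between motif and change was not tested, and a match of letters is a description only. Rtel1 (chr2:181319474-181319723, plus strand) holds the motif on the antisense strand, so that its capitals hold runs of C, in 25 bases that begin 117 bases before the start. Brip1 (chr11:86201194-86201443, minus strand) holds it on the sense strand, in 22 bases that begin 181 bases before the start. Capitals mark the motif.
Rtel1: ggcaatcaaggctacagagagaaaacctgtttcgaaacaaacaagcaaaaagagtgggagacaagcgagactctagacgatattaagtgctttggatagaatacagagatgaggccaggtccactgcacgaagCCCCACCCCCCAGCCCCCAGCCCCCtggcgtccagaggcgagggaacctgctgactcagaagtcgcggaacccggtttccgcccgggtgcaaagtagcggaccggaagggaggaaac
Brip1: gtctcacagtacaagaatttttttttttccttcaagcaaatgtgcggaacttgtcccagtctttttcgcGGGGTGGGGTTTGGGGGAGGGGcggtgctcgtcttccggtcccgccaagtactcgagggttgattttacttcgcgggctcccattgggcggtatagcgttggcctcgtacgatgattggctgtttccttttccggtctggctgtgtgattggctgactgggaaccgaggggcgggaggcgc
By G4Hunter, a score of G-richness on one strand over C-richness in windows of 25 bases, the Rtel1 promoter reached -3.12 and the Brip1 promoter 2.84. Blm, Dhx36 and Dhx9 stayed between -1.32 and 1.32, and 38.1% of all windows reached a score of at least 1.5 on either strand.

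Levels of different genes were compared in TPM, which corrects for transcript length. In Rtel1 F/F +GFP cells Dhx9 was the highest at 175 ± 13.3 TPM (SD, n = 3), followed by Dhx36 at 65.6 ± 3.66 TPM. Rtel1 (29.4 ± 1.56 TPM), Recql4 (27.6 ± 1.04), Blm (26.3 ± 1.48) and Ddx11 (21.8 ± 1.38) formed a middle group, in which the libraries of Recql4 and its neighbours overlapped. Brip1 (12.6 ± 1.28), Pif1 (11.9 ± 0.731) and Wrn (9.47 ± 0.833) were the lowest. Across the 21 libraries every member kept at least 672 counts. Apart from Rtel1, whose highest and lowest group means were 11.3-fold apart, the widest range over groups was that of Recql4, at 3.41-fold, and the narrowest that of Pif1, at 1.37-fold.

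**Figure D1:**
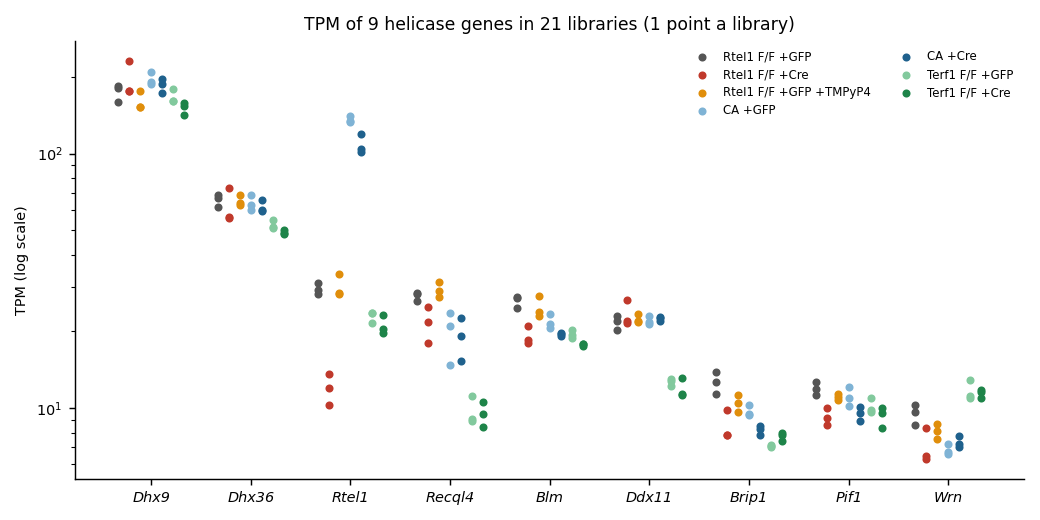
TPM (log axis) of the 9 helicase genes, ordered by their mean in Rtel1 F/F +GFP cells, with 1 point for each of 21 libraries and a colour for each group. Dhx9 lies highest in every group, Rtel1 lies above 100 TPM in the CA groups, and Recql4 and Ddx11 lie lower in both Terf1 F/F groups than in the Rtel1 lines.

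Rtel1, the gene targeted by Cre, checks the labels, and its levels are given in CPM, normalized counts scaled to a common library size. The Rtel1 F/F +GFP libraries had 66.2, 59.1 and 60.2 CPM, and the Rtel1 F/F +Cre libraries 29.9, 31.9 and 26.8 CPM. TMPyP4-treated libraries had 66.3, 79.0 and 70.9 CPM. CA +GFP libraries had 338, 328 and 331 CPM and CA +Cre libraries 283, 253 and 257 CPM. In the Terf1 line the values were 49.1, 47.9 and 50.05 CPM under GFP and 44.2, 43.7 and 49.7 CPM after Cre. Rtel1 F/F +Cre libraries were thus the lowest of all 21 and did not overlap any other group, while Terf1 F/F +GFP and +Cre overlapped each other. After Cre, 47.7% of the Rtel1 level remained in Rtel1 F/F cells, and 79.6% in CA cells. The fall of the mean was 32.3 CPM in Rtel1 F/F cells and 67.7 CPM in CA cells, in which reads from the vector and from the floxed allele are counted together. RNA left in every cell and cells that kept the allele cannot be told apart in bulk RNA, here or for any gene below. Counts are summed over the gene, so they do not show which exons the remaining Rtel1 RNA holds. The study reports that the Cre virus leads to loss of the floxed allele and then of RTEL1 protein.

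**Figure D2:**
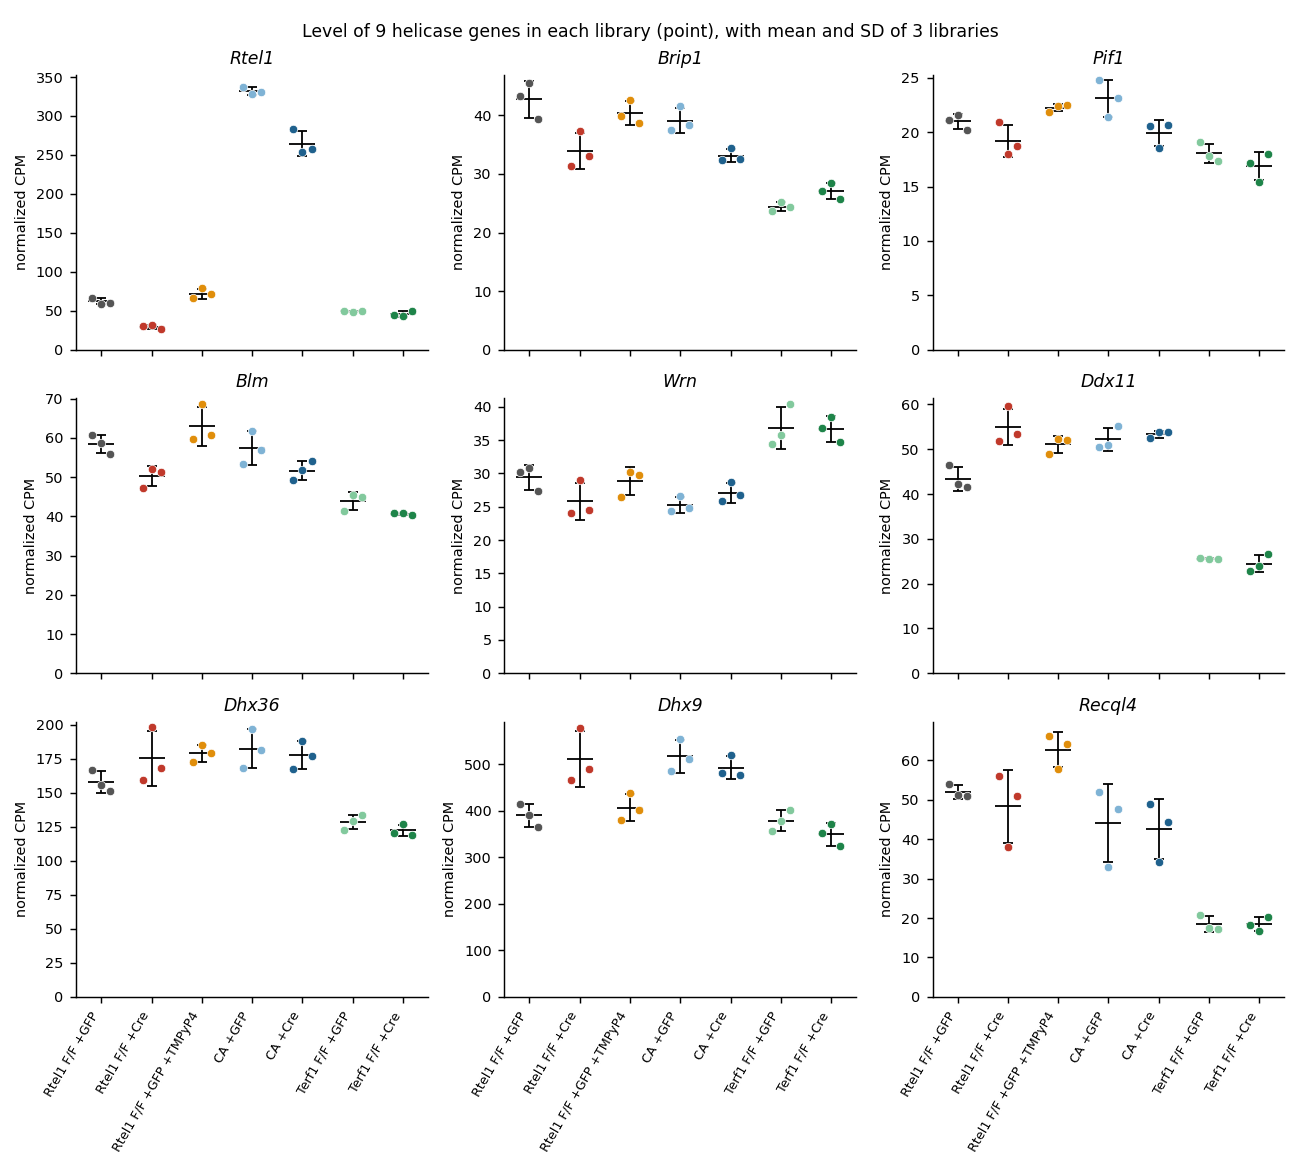
Normalized CPM (axes from 0) of each helicase gene in the 7 groups. Points are libraries, and bars give the mean and SD of 3 libraries. Rtel1 F/F +Cre cells are lowest for Rtel1, CA cells stand far above all others for Rtel1 alone, and the 3 Rtel1 F/F +GFP libraries lie below those of Rtel1 F/F +Cre, TMPyP4-treated and CA cells for Ddx11.

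Rtel1 loss, that is, Rtel1 F/F +Cre against +GFP cells, asks what the other G4 helicases do when RTEL1 is removed. With Rtel1 itself, whose fall is set by its deletion, 4 of 9 members (44.4%) passed an adjusted p of 0.01, 2 up and 2 down. Of all genes tested 43% passed, so the share is near the background. The median log2 fold change of the members was -0.13, and that of all genes -0.03. Rtel1 fell by 1.07 on the log2 scale (SE 0.0787, adjusted p = 5.4e-09, edgeR quasi-likelihood test with Benjamini-Hochberg adjustment, as for every adjusted p below unless named).

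Brip1, the Fanconi anaemia helicase that partners BRCA1, had 43.3, 45.6 and 39.4 CPM under GFP and stood at 31.4, 37.4 and 33.0 CPM after Cre. The groups did not overlap, but the highest Cre library came near the lowest GFP library. Brip1 fell by 20.6% (log2 -0.33, SE 0.0741, adjusted p = 9.47e-04). The call was lost without Cre replicate 3 (adjusted p = 0.0183) or GFP replicate 2 (0.0317).

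Ddx11, a helicase of sister chromatid cohesion, moved the other way. Its GFP libraries had 46.5, 42.2 and 41.5 CPM and its Cre libraries 51.95, 59.6 and 53.5 CPM, all 3 above the GFP libraries. Ddx11 rose 1.27-fold (log2 0.34, SE 0.0681, adjusted p = 3.57e-04), and no single library decided the call, since the adjusted p stayed between 2.94e-04 and 6.62e-03 with each left out in turn. In this fit Brip1 and Ddx11, the iron-sulphur members that Cre does not target, moved in opposite directions, Brip1 down and Ddx11 up. Neither was called with CA +GFP cells as control.

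Dhx9, an abundant nuclear helicase that opens RNA-DNA hybrids and structured RNA, had 415, 391.7 and 365 CPM under GFP and stood at 467, 579 and 489 CPM after Cre. All Cre libraries were above all GFP libraries, and Cre replicate 2 was the highest of the 21 libraries. Dhx9 rose 1.31-fold (log2 0.39, SE 0.0864, adjusted p = 9.07e-04), but without that library the value was 0.28 (adjusted p = 0.0193), and without GFP replicate 3 it was 0.36 (0.0145). Its relative Dhx36, the main G4 resolvase of cell extracts, had 167, 156 and 152 CPM under GFP and stood at 160, 198 and 168 CPM after Cre. These groups overlapped, and the log2 fold change was 0.15 (95% interval -0.01 to 0.31, adjusted p = 0.109).

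Among the RecQ members, Blm, which takes part in removing crossed DNA strands, had 60.6, 58.8 and 56.0 CPM under GFP and stood at 47.4, 52.2 and 51.2 CPM after Cre. Its groups did not overlap, but it missed the threshold, at a log2 fold change of -0.22 (SE 0.0688, adjusted p = 0.0119), and passed it with the filter set to at least 10 counts in every library (adjusted p = 7.91e-03). Wrn, the Werner syndrome helicase with a nuclease domain, had a log2 fold change of -0.19 (adjusted p = 0.0734), from libraries at 27.3 to 30.7 CPM under GFP and at 24.0 to 28.9 CPM after Cre. Recql4, a RecQ protein that also serves the start of replication, had 53.9, 51.1 and 50.9 CPM under GFP and stood at 56.0, 38.1 and 50.9 CPM after Cre. The second Cre library was low, and the log2 fold change was -0.10 with a wide 95% interval of -0.45 to 0.24 (adjusted p = 0.602). Pif1, which acts at telomeres and in mitochondria, had 20.2 to 21.6 CPM under GFP and stood at 18.0 to 20.9 CPM after Cre, a log2 fold change of -0.13 (adjusted p = 0.175).

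Calls after Rtel1 loss depended on the fit. With only the 6 libraries compared, Rtel1 alone was called, against 34.4% of all genes, since Brip1, Ddx11 and Dhx9 had adjusted p-values of 0.0224, 0.0136 and 0.0153. On the TPM scale the median gene was at -0.26, and relative to it the members were where TMM placed them, with Brip1 at -0.31, Ddx11 at 0.35 and Dhx9 at 0.40. As TPM values stand, without that shift, the split of the called members was 0 up and 5 down instead of 2 up and 2 down, against 46.5% of all genes called, 1503 up and 4870 down. Ddx11, at 0.10, and Dhx9, at 0.14, lost their calls (limma, adjusted p = 0.312 and 0.223), while Pif1 (-0.37, adjusted p = 2.06e-03), Blm (-0.46, 7.09e-05) and Wrn (-0.43, 1.72e-03) were called lower with Rtel1 and Brip1. With total counts as scaling, which put the median gene at -0.14, 2 members were called up and 4 down against 44% of all genes. Blm (-0.32, adjusted p = 7.76e-04) and Wrn (-0.29, 9.65e-03) were the members added.

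**Figure D3:**
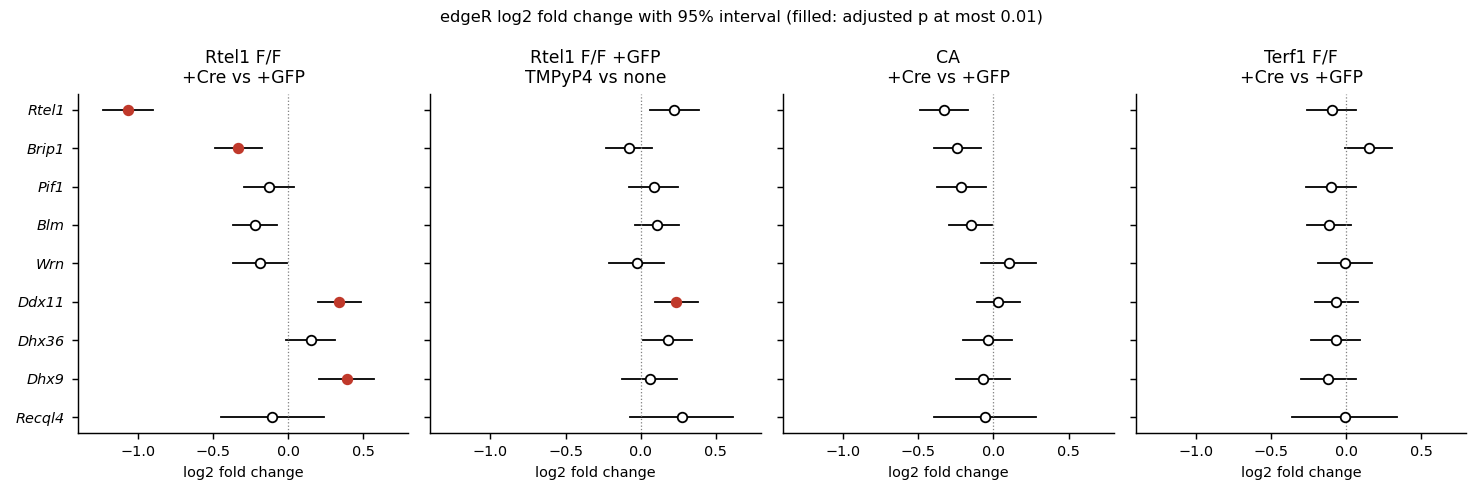
edgeR log2 fold change (x axis) of the 9 members in 4 comparisons, with 95% intervals and filled points for an adjusted p of at most 0.01. After Rtel1 loss Rtel1 and Brip1 lie left of 0 and Ddx11 and Dhx9 right of it, Ddx11 alone is filled with TMPyP4, and no point is filled after Cre in CA or Terf1 F/F cells.

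TMPyP4 asks what the helicases do when G4-DNA is stabilized with RTEL1 present, and it shares its +GFP libraries with the comparison above. Only Ddx11 was called, 1 of 9 members (11.1%) against 30% of all genes tested. Ddx11 had 49.0, 52.4 and 52.1 CPM with TMPyP4, all above the +GFP libraries, and rose 1.18-fold (log2 0.24, SE 0.0681, adjusted p = 9.2e-03). The call stands at the threshold and was lost under DESeq2 (adjusted p = 0.0113), a filter of at least 10 counts (0.0125), total counts as scaling (0.112) and in 5 of 6 fits that left out a library. Rtel1 was 1.17-fold higher on average with TMPyP4, a log2 fold change of 0.22 (adjusted p = 0.0281), with the lowest treated library at 66.3 CPM and the highest +GFP library at 66.2 CPM.

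The other members were not called after TMPyP4. Recql4 had 66.3, 57.7 and 64.2 CPM, above all 3 +GFP libraries, but its log2 fold change of 0.27 had a 95% interval of -0.07 to 0.61 (adjusted p = 0.186). Dhx36 had 173, 185 and 180 CPM, also above every +GFP library, with a log2 fold change of 0.18 (adjusted p = 0.0697). Values for Brip1, Pif1, Blm, Wrn and Dhx9 lay between -0.08 and 0.11, and the 95% intervals of all 9 members lay between -0.23 and 0.61.

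Rtel1 F/F +Cre cells were also set directly against TMPyP4-treated cells. In this comparison 3 of 9 members (33.3%) were called against 15.2% of all genes. These were Rtel1, the target of Cre, at -1.29 (adjusted p = 2.38e-09), Blm at -0.33 (1.81e-03) and Dhx9 at 0.33 (8.7e-03). Blm had 59.6, 68.7 and 60.7 CPM with TMPyP4, above all of the Cre libraries, and Dhx9 had 380, 438 and 403 CPM, below all of them. Same-numbered libraries of these groups deviated together, and a block for the replicate number gave 5 called members, Brip1 at -0.26 (adjusted p = 3.27e-03) and Recql4 at -0.39 (5.47e-03) being added, against 20.7% of all genes. Blm lost its call without Cre replicate 1 or 3 or TMPyP4 replicate 2 (adjusted p = 0.0289 at most), and Dhx9 without Cre replicate 2 or 3 or TMPyP4 replicate 1 or 3 (0.0695 at most). Without Cre replicate 3 Rtel1 alone was called. With only these 6 libraries in the fit 1 member was called, against 7.46% of all genes. On TPM 0 were called up and 2 down, against 14%.

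Against CA +GFP cells as control, in place of Rtel1 F/F +GFP, the picture of both comparisons changed. Rtel1 was left out because CA cells carry the vector. For Rtel1 F/F +Cre cells 0 of the other 8 members were called by edgeR, against 7.76% of all genes, with Brip1 at -0.20 (adjusted p = 0.0817), Ddx11 at 0.07 (0.584) and Dhx9 at -0.02 (0.952). Unadjusted p-values under 0.05 were those of Brip1, Pif1 and Blm, whose 95% intervals lay below 0. Same-numbered libraries of these groups deviated together, and with a block for the replicate number 0 of 8 were called as well, against 10.4% of all genes. In that fit the adjusted p was 0.0132 for Brip1, 0.0168 for Pif1 and 0.0372 for Blm, each lower than CA +GFP in 3 of 3 pairs, and 0.418 for Recql4, which was higher in 3 of 3. Ddx11 had 50.6, 50.9 and 55.3 CPM and Dhx9 486, 556 and 511 CPM in CA +GFP cells, and both overlapped Rtel1 F/F +Cre cells. For TMPyP4 1 of 8 members was called against 17% of all genes, Dhx9 at -0.35 (adjusted p = 5.8e-03), where the value against Rtel1 F/F +GFP was 0.06. Ddx11 was at -0.03 (adjusted p = 0.798) and Recql4 at 0.51 (0.0266). These libraries were paired by number too, and the block called 2 of 8 members against 23.4% of all genes, Dhx9 at -0.35 (adjusted p = 1.65e-03) and Recql4 at 0.53 (1.02e-03), which was higher with TMPyP4 in 3 of 3 pairs. CA +GFP cells differ from Rtel1 F/F +GFP cells in the vector, its transduction and anything else that set the cultures apart, and these cannot be told apart.

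**Figure D4:**
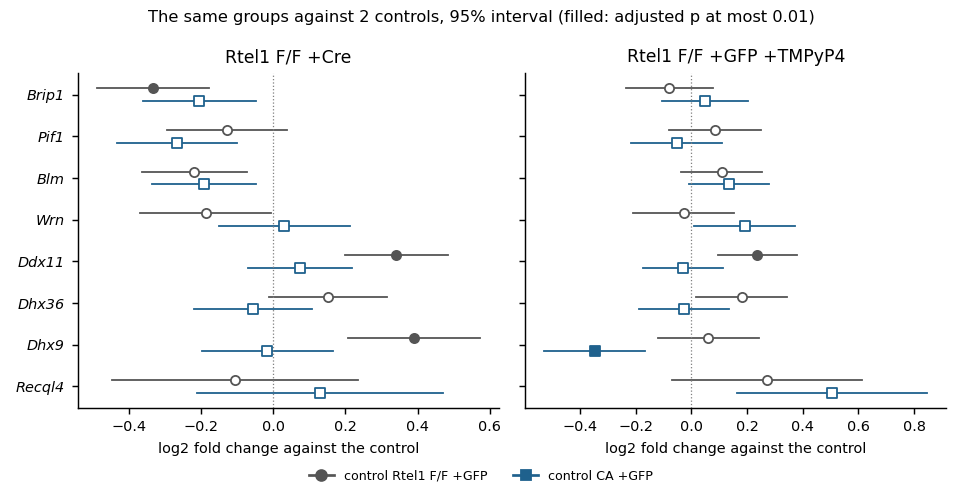
Log2 fold change (x axis, 95% interval) of 8 members in Rtel1 F/F +Cre (left) and TMPyP4-treated cells (right), against Rtel1 F/F +GFP (circles) and CA +GFP cells (squares), filled at an adjusted p of at most 0.01. Ddx11 and Dhx9 after Rtel1 loss move from 0.34 and 0.39 to 0.07 and -0.02 when the control is changed, and Blm stays near -0.2.

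Cre in CA cells removes the floxed allele while RTEL1 C1252A/C1255A is made from the vector. By edgeR 0 of 9 members were called, against 1.09% of all genes, while DESeq2 called Rtel1, against 2.42%. The 4 at an unadjusted p under 0.05 by edgeR were Rtel1, Brip1, Pif1 and Blm. The share of all genes at that level is not given. Rtel1 had a log2 fold change of -0.33 (95% interval -0.49 to -0.17, adjusted p = 0.0241 by edgeR and 1.96e-03 by DESeq2), with no overlap between groups. Brip1 had 37.5, 41.5 and 38.3 CPM under GFP and stood at 32.5, 34.4 and 32.6 CPM after Cre, again without overlap, and Pif1 had 21.4 to 24.8 CPM under GFP and stood at 18.6 to 20.7 CPM after Cre. Brip1 was at -0.24 (adjusted p = 0.0908), Pif1 at -0.21 (0.178) and Blm at -0.15 (0.315). Dhx9, Dhx36, Ddx11, Wrn and Recql4 lay between -0.07 and 0.10, and their groups overlapped. Replicate numbers paired these libraries, and the block changed none of the 9 calls, with Rtel1 at an adjusted p of 0.0168.

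Terf1 loss, a second telomere defect, left the helicase genes without a call. Terf1 itself was at 0.0608 ± 0.0434 CPM (SD, n = 3) after Cre and at 29.3 ± 1.21 CPM before. By edgeR 0 of 9 members were called, against 3.42% of all genes, with 0 at an unadjusted p under 0.05 and 0 called by DESeq2. The largest difference was that of Brip1, at 23.6, 25.3 and 24.4 CPM under GFP and at 27.2, 28.4 and 25.8 CPM after Cre, a log2 fold change of 0.15 (95% interval -0.01 to 0.31, adjusted p = 0.318). The other 8 lay between -0.12 and -0.01, and all 9 intervals lay between -0.36 and 0.34, the widest being that of Recql4.

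The effect of Cre was then compared between lines. Between Rtel1 F/F and CA cells it differed in 2 of 9 members (22.2%) against 25.1% of all genes. These were Rtel1, the target of Cre in both lines, by -0.74 (SE 0.109, adjusted p = 5.42e-05) and Dhx9 by 0.46 (SE 0.122, adjusted p = 6.47e-03). Dhx9 lost this call without replicate 1 or 3 of CA +Cre, 2 or 3 of CA +GFP, 2 or 3 of Rtel1 F/F +Cre or 2 or 3 of Rtel1 F/F +GFP (adjusted p = 0.0396 at most), which left 1 member called, and 3 were called without Rtel1 F/F +GFP replicate 1. On TPM the called differences were 0 above and 2 below 0, Rtel1 and Wrn (-0.53, limma adjusted p = 8.37e-03), against 26.1% of all genes. With total counts that of Rtel1 alone was called, against 24.5%. The effect on Brip1 differed by -0.09 (95% interval -0.31 to 0.13, adjusted p = 0.511) and that on Blm by -0.07 (-0.27 to 0.14, 0.621). Ddx11, at 0.31 (0.11 to 0.51, 0.0165), and Wrn, at -0.29 (-0.55 to -0.03, 0.0707), were not called although their intervals left out 0. DESeq2 called 2 members above and 1 below 0, against 28.5% of all genes. Between Rtel1 F/F and Terf1 F/F cells it differed in 4 of 9 members (44.4%) against 30.2% of all genes, counting Rtel1, the target of Cre in Rtel1 F/F cells. These were Rtel1 by -0.97 (adjusted p = 2.5e-06), Brip1 by -0.48 (1.26e-03), Ddx11 by 0.41 (2.56e-03) and Dhx9 by 0.51 (2.68e-03), but 1 was called without Rtel1 F/F +GFP replicate 2 or Terf1 F/F +Cre replicate 1, and 2 without Rtel1 F/F +Cre replicate 2, Rtel1 F/F +GFP replicate 3 or replicate 2 of either Terf1 F/F group. On TPM 0 of these differences were called above and 2 below 0 (Rtel1 and Brip1), against 29.5% of all genes. With total counts 1 was called above and 2 below, against 29%. Both differences use the Rtel1 F/F +GFP libraries, which stood apart.

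Before any Cre the lines already differed in these genes, and the CA and Terf1 F/F comparisons here share the Rtel1 F/F +GFP libraries. With TMM scaling CA +GFP cells had 3 of 9 members called (33.3%) against 44.7% of all genes, all 3 higher, counting Rtel1, which the vector adds. Rtel1 was 5.37-fold higher (log2 2.43, adjusted p = 5.16e-13), Ddx11 was higher by 0.27 (2.77e-03) and Dhx9 by 0.41 (6.11e-04). Blm, at -0.03 (95% interval -0.17 to 0.12), and Brip1, at -0.13 (-0.28 to 0.03), were not called. On TPM, where the median gene was at -0.26, 1 member was called higher and 3 lower against 47.2% of all genes. Rtel1 was higher, Brip1 (-0.37, limma adjusted p = 2.91e-03), Blm (-0.27, 5.5e-03) and Wrn (-0.46, 9.75e-04) were lower, and Ddx11 (0.02, 0.843) and Dhx9 (0.16, 0.174) were not called. With total counts 2 were higher and 1, Wrn, was lower, against 44.8% of all genes. Ddx11 lost its call without CA +GFP replicate 3 or Rtel1 F/F +GFP replicate 2 or 3 (adjusted p = 0.0256 at most).

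Terf1 F/F +GFP cells differed from Rtel1 F/F +GFP cells in 7 of 9 members (77.8%) against 54.9% of all genes, 6 lower and 1 higher. Recql4 had 20.9, 17.5 and 17.2 CPM against 50.9 to 53.9 CPM in Rtel1 F/F +GFP cells, a log2 fold change of -1.49 (SE 0.167, adjusted p = 3.83e-07). Ddx11 had 25.7, 25.6 and 25.6 CPM (log2 -0.76, adjusted p = 1.98e-08) and Brip1 23.6, 25.3 and 24.4 CPM (-0.81, 2.75e-08). Blm (-0.41, adjusted p = 4.36e-05), Rtel1 (-0.34, 9.62e-04) and Dhx36 (-0.30, 2.57e-03) were lower as well. Wrn was the exception, with 34.4, 35.8 and 40.4 CPM, above all 3 Rtel1 F/F +GFP libraries, and was higher by 0.33 (adjusted p = 2.75e-03). Its call was lost without replicate 2 or 3 of either group (adjusted p = 0.0540 at most), and that of Dhx36 without replicate 1 or 2 of either group (0.0209 at most). On TPM Wrn was not called, and the split was 0 higher and 6 lower, against 53.4% of all genes. Dhx9, at -0.04 (95% interval -0.22 to 0.14), and Pif1, at -0.22 (adjusted p = 0.0220), were not called. Summed levels of 15 replication and mitosis genes were 3476 ± 74.4 CPM in Terf1 F/F +GFP and 4795 ± 106 CPM in Rtel1 F/F +GFP cells, a measure of cycling cells whose part in these differences was not tested.

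**Figure D5:**
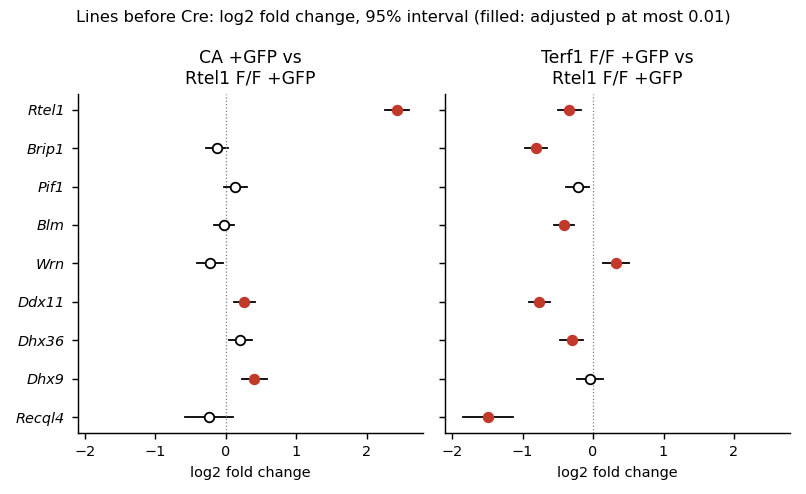
Log2 fold change (x axis, 95% interval) of the 9 members in CA +GFP and Terf1 F/F +GFP cells against Rtel1 F/F +GFP cells, filled at an adjusted p of at most 0.01. In CA cells Rtel1 lies at 2.43 and the others within 0.5 of 0, and in Terf1 F/F cells 6 members lie lower, Recql4 the farthest at -1.49, and Wrn lies higher.

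Genes that work with or beside the helicases were read from lists. Of 12 other helicases of the same families or reported on G4, 5 rose and 2 fell after Rtel1 loss, against 43% of all genes called, with a median of 0.19 beside -0.03 for all genes. The list also had 5 higher and 2 lower in CA +GFP than in Rtel1 F/F +GFP cells, against 44.7% of all genes. Against CA +GFP as control edgeR called 0 of the 12 after Rtel1 loss, with and without the block, against 10.4% and 7.76% of all genes. In both fits 0 were at an unadjusted p under 0.05, and the median was -0.01. On TPM 4 were higher and 3 lower after Rtel1 loss, against 46.5% of all genes. The nucleolar RNA helicase Ddx21 rose from 192 ± 47.5 to 477 ± 39.3 CPM (log2 1.31, adjusted p = 4.71e-08) and Ddx1 by 0.81 (8.61e-07), while Helb fell by 0.54 (5.07e-06) and Fbxo18 by 0.32 (3.44e-05). With TMPyP4 4 rose and 1 fell against 30% of all genes, Ddx21 by 0.73 (adjusted p = 7.3e-05), Ddx1 by 0.69 and Helb to 26.6 from 36.0 CPM. The RecQ relatives Recql and Recql5, at 0.11 and -0.10 after Rtel1 loss, were not called.

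Of these lists the 15 proteins known to bind G4 structures held the most calls after Rtel1 loss. After Rtel1 loss 11 rose and 1 fell, against 43% of all genes called, with a median of 0.41. With TMPyP4 8 rose and 0 fell, against 30% of all genes, with a median of 0.34. Nucleolin (Ncl) rose from 892 ± 184 to 2387 ± 294 CPM after Rtel1 loss (log2 1.42, adjusted p = 1.65e-08) and nucleophosmin (Npm1) from 823 ± 106 to 2121 ± 239 CPM (1.37, 3.76e-08). The transcription factor Maz fell by 0.48 (adjusted p = 2.56e-04). With TMPyP4 Npm1 rose by 0.95 and Ncl by 0.94. The same list had 10 members higher and 0 lower in CA +GFP than in Rtel1 F/F +GFP cells, against 44.7% of all genes. After Cre in CA or Terf1 F/F cells 0 were called by edgeR and by DESeq2 (1 and 4 at an unadjusted p under 0.05 by edgeR). Of all genes edgeR called 1.09% and 3.42% there. Against CA +GFP as control edgeR called 0 for Rtel1 loss, with 3 at an unadjusted p under 0.05, and 1 fell with TMPyP4, against 7.76% and 17% of all genes. With the block these counts were 0 up and 1 down for Rtel1 loss, and 1 up and 2 down with TMPyP4, against 10.4% and 23.4%. On the TPM scale, where the median gene was at -0.26, 4 were higher and 2 lower after Rtel1 loss, against 46.5% of all genes, with the list's median at 0.19. With total counts 7 were higher and 2 lower, against 44% of all genes.

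The calls in 3 further lists depended on the scaling and on the control. Of 15 partners of the members 1 rose and 1 fell after Rtel1 loss, against 43% of all genes called, the WRN-interacting Wrnip1 (0.40, adjusted p = 1.87e-05) and the fork protection gene Timeless (fell by 0.54, 6.14e-04), and Wrnip1 was the single call with TMPyP4 (0.35, 1.49e-04), against 30% of all genes. Top3a, Rmi1 and Rmi2, which form a complex with BLM, were not called. DESeq2 called 2 partners up and 3 down after Rtel1 loss, against 41% of all genes. On TPM 0 were higher and 7 lower both after Rtel1 loss and with TMPyP4, against 46.5% and 29.7% of all genes. With total counts 1 was higher in each, with 5 lower after Rtel1 loss and 3 with TMPyP4, against 44% and 29.1%. The list's median on TPM was -0.20 after Rtel1 loss beside -0.26 for all genes. Of 8 genes that deliver iron-sulphur clusters to RTEL1, BRIP1 and DDX11, 0 were called by edgeR after Rtel1 loss, with 3 at an unadjusted p under 0.05 and 2 called by DESeq2, and Mms19 alone rose with TMPyP4 (0.22, adjusted p = 3.12e-03), a call lost on TPM and with total counts. Among 8 polymerases and nucleases used past G4, Polk rose by 0.57 (1.38e-04) and Rev3l fell by 0.45 (1.08e-03) after Rtel1 loss. With TMPyP4 Polk rose by 0.46, Rev3l fell by 0.43 and the flap nuclease Fen1 fell by 0.29 (adjusted p = 8.75e-03). On TPM 0 of these 8 were higher, and 4 were lower after Rtel1 loss and 2 with TMPyP4. Against CA +GFP as control edgeR called 0 genes of these 3 lists after Rtel1 loss, against 7.76% of all genes. With TMPyP4 1 polymerase or nuclease rose, against 17%. The block gave 1 polymerase or nuclease up after Rtel1 loss, against 10.4%. With TMPyP4 it gave 1 partner up, 3 iron-sulphur genes down, and 1 polymerase or nuclease up and 1 down, against 23.4%. After Cre in CA cells 0 genes of these 3 lists or of the other helicases were called by edgeR, with 0 at an unadjusted p under 0.05, or by DESeq2, and after Terf1 loss the calls were Terf1 itself and Polk, which rose by 0.46 (8.56e-03).

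The 15 replication and mitosis genes split after Rtel1 loss, 5 up and 5 down against 43% of all genes called, with a median of -0.02. On TPM 4 were higher and 8 lower, against 46.5%. In CA +GFP against Rtel1 F/F +GFP cells 5 were higher and 3 lower, against 44.7%. Against CA +GFP as control edgeR called 1 up and 0 down after Rtel1 loss, against 7.76%, and with the block 1 up and 1 down, against 10.4%. Ccne1 (cyclin E1) rose by 1.41 (adjusted p = 1.35e-10) and Rrm2 by 1.19 (6.31e-07), while Mki67 fell by 0.59 (6.63e-04) and Mcm2 by 0.46 (7.48e-03). Ccne1 was the list's single call after Cre in CA cells (0.44, adjusted p = 2.99e-03) and in Terf1 F/F cells (0.58, 4.29e-05), against 1.09% and 3.42% of all genes. With TMPyP4 2 rose and 3 fell, against 30% of all genes, and on TPM 0 were higher and 7 lower, against 29.7%. Against CA +GFP as control 0 rose and 3 fell with TMPyP4, against 17%, and with the block 0 rose and 5 fell, against 23.4%. The summed level of the list with TMPyP4 was 4349 ± 28.6 CPM, below the 4714 to 4915 CPM of the +GFP libraries. After Rtel1 loss the sum, at 4712 ± 179 CPM, overlapped that of +GFP cells.

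The genes most like each member in pattern were ranked by Pearson's r of log2 CPM over the 21 libraries, among 10239 genes. Ddx11 was most like Trip13 (r = 0.994) and Riok1 (0.991), Dhx36 most like B3galnt2 (0.985) and Patl1 (0.984), and Recql4 most like Reep6 and Abcb6 (both 0.982). Blm was most like Rhobtb3 (0.975) and Creb1 (0.960), Wrn most like Serinc3 (0.971) and Nbr1 (0.964), and Brip1 most like Hdgfrp3 (0.970) and Dtl (0.953). Dhx9 was most like Eif2ak1 (0.963) and Mtrf1l (0.961), and Pif1 most like Nrf1 (0.902) and Runx3 (0.898). Rtel1 had the least similar leaders, Mcc (0.836) and Slc25a15 (0.823). Among the members Ddx11 and Dhx36 (0.950) and Brip1 and Blm (0.916) were closest, and Wrn had a negative r with each of the other 8, from -0.88 with Ddx11 to -0.44 with Rtel1. The libraries share cell lines and groups, so they are not independent points, and these values describe the samples only.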

How the data were processed

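RNA from 21 MEF libraries (7 groups of 3) was sequenced and processed by the authors. Per the labels and the study's methods, reads were trimmed with cutadapt 1.9.1, aligned to mm10 with STAR 2.5.2a and quantified with RSEM 1.3.0 against RefSeq genes, by strand. The deposited expected counts of RSEM were whole numbers in every cell and were tested as they stood, and the deposited TPM values, which the authors scaled for transcript length and library size, served to compare levels between genes. Sources differ on read length and serum.

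The members and the gene lists were chosen with earlier results of these data known. CPM was computed with TMM factors. Genes were kept by filterByExpr (13719 of 24454), and edgeR 4.0.16 in R 4.3.3 fitted quasi-likelihood models with 1 coefficient per group over all 21 libraries (14 residual degrees of freedom). Benjamini-Hochberg adjustment covered all genes tested, with calls at an adjusted p of at most 0.01, two-sided. Every member, each list gene named for its size or role and the 2 genes most like each member (mean CPM of at least 5) were named. Replicates are titled biological, and p-values set each difference against the spread between these libraries. Depth was 32069888 to 51938593 counts, and at most 1.069% of counts were identical between any pair of libraries. The models were tested on simulated data.

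Other settings tried were DESeq2 1.42.0, edgeR with size factors from DESeq2, all genes unfiltered, a minimum of 10 counts in each library, a fit to the compared groups alone, a block for the replicate number, each library left out, CA +GFP as control, an adjusted p of 0.05 and a log2 change of at least 1. Total counts as scaling and limma 3.58.1 on log2(TPM + 0.1) were added after the data were seen, as were the fits with a block shared by both Rtel1 lines. Same-numbered libraries deviated together over 11840 genes between TMPyP4-treated and Rtel1 F/F +Cre cells (correlations 0.724, 0.758 and 0.409), between CA +Cre and CA +GFP cells (0.864, 0.839 and 0.424), between Rtel1 F/F +Cre and CA +GFP cells (0.781, 0.811 and 0.195) and between TMPyP4-treated and CA +GFP cells (0.776, 0.693 and 0.303), so these were taken as paired. In Rtel1 loss, TMPyP4, Terf1 loss and the comparisons of lines before Cre at least 1 of the 3 correlations was 0.1 or lower, and these were not. Promoter windows came from RefSeq (GRCm38.p6), and those of Pif1, Wrn, Ddx11 and Recql4 were not used here. Figures were drawn with matplotlib 3.10.9.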

Additional observations from a re-analysis of the deposited data

Results flagged for a closer look

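The effect of Cre on 4 members differed between lines, by a test of the difference itself (edgeR, Benjamini-Hochberg adjustment). For Rtel1 the differences were set by the design and are not a finding. Cre targets Rtel1 in Rtel1 F/F cells and not in Terf1 F/F cells, and CA cells also hold Rtel1 RNA from the vector. Rtel1 F/F minus CA gave a log2 difference of -0.74 for Rtel1 (adjusted p = 5.42e-05) and 0.46 for Dhx9 (6.47e-03), against 25.1% of all genes called. Dhx9 lost its call here in 11 of 20 other fits. Rtel1 F/F minus Terf1 F/F gave -0.97 for Rtel1 (adjusted p = 2.5e-06), -0.48 for Brip1 (1.26e-03), 0.41 for Ddx11 (2.56e-03) and 0.51 for Dhx9 (2.68e-03), against 30.2% of all genes. Brip1, Ddx11 and Dhx9 lost these calls in 4, 9 and 7 of 20 other fits. All 6 values rest on the Rtel1 F/F +GFP libraries, whose part in them was not tested.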

How the results depend on the processing

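Across the 9 members and 9 comparisons, 1283 alternative values were computed, of which 1115 kept direction and side of the threshold, 85 lost a call, 18 gained one and 65 changed sign, 4 of them where the reported value was called. Every library held at least 672 counts of each member. The cause was not tested for any value below.

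Counts of called members are followed by the share of all genes called in the same fit. That share is not given for a log2 change of at least 1, an adjusted p of 0.05 or a library left out. Members called after Rtel1 loss were 1 at a log2 change of at least 1. Against CA +GFP 0 were called without and with the replicate block (7.76% and 10.4% of all genes). With only the groups compared 1 was called (34.4%), with total counts 6 (44%, members 2 up, 4 down) and on TPM 5 (46.5%, members 0 up, 5 down). For TMPyP4 they were 0 under DESeq2 (30.3%), its size factors (28.2%), limma on TPM (29.7%), at least 10 counts (32.1%) and no filter (20.6%). They were also 0 with only the groups compared (29.6%), the replicate block (39.6%) and total counts (29.1%). At a log2 change of at least 1 they were 0, at an adjusted p of 0.05 they were 2, and with a library left out 0 to 1. Cre in CA cells gave 1 under DESeq2 (2.42%) and 1 at 0.05. Rtel1 loss against TMPyP4 gave 1 at a log2 change of at least 1, 1 with only the groups compared (7.46%) and 1 to 2 with a library left out. The replicate block, whose pairing held, gave 5 (20.7%). Where the numbers did not pair the libraries (correlations for Rtel1 loss -0.0172, 0.058 and 0.131), the block called Blm after Rtel1 loss (-0.22, edgeR adjusted p = 6.66e-03, Benjamini-Hochberg). That fit called 52.3% of all genes. The difference between Rtel1 F/F and CA gave 0 at a log2 change of at least 1 and 1 to 3 with a library left out. It gave 1 with only the groups compared (16.9%) and 1 with total counts (24.5%). The difference between Rtel1 F/F and Terf1 F/F gave 2 on TPM (29.5%), 0 at a log2 change of at least 1 and 1 to 4 with a library left out. CA before Cre gave 1 at a log2 change of at least 1, 5 at 0.05 and 4 on TPM (47.2%, members 1 up, 3 down). Terf1 F/F before Cre gave 1 at a log2 change of at least 1.

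Signs changed as follows. Against CA +GFP, TMPyP4 gave Brip1 0.049, Ddx11 -0.030, Dhx36 -0.027, Dhx9 -0.35, Pif1 -0.054 and Wrn 0.19, and Rtel1 loss gave Dhx36 -0.057, Dhx9 -0.017, Recql4 0.13 and Wrn 0.031. With the replicate block, against CA +GFP, TMPyP4 gave Brip1 0.049, Ddx11 -0.030, Dhx36 -0.025, Dhx9 -0.35, Pif1 -0.050 and Wrn 0.19, with 2 members called against 23.4% of all genes. Rtel1 loss in that setting gave Dhx36 -0.059, Dhx9 -0.020, Recql4 0.13 and Wrn 0.028. On TPM, TMPyP4 gave Blm -0.085, Dhx36 -0.011, Dhx9 -0.13 and Pif1 -0.11, Rtel1 loss Dhx36 -0.096, CA before Cre Dhx36 -0.041 and Pif1 -0.11, Rtel1 F/F minus CA Dhx36 -0.053 and Pif1 -0.15, and Rtel1 F/F minus Terf1 F/F Dhx36 -0.0027. With total counts, TMPyP4 gave Dhx9 -0.039 and Pif1 -0.015, and Rtel1 F/F minus CA Pif1 -0.032. Blm in CA before Cre was 0.0013 under DESeq2 and 0.0010 with its size factors.

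With a library left out, Rtel1 loss gave Recql4 -0.22 to 0.024. TMPyP4 gave Dhx9 -0.0053 to 0.11 and Wrn -0.097 to 0.032. Cre in CA cells gave Dhx36 -0.11 to 0.019, Recql4 -0.23 to 0.069 and Ddx11 -0.0059 to 0.071. Terf1 loss gave Recql4 -0.090 to 0.085 and Wrn -0.055 to 0.064. Rtel1 loss against TMPyP4 gave Dhx36 -0.12 to 0.045. Rtel1 F/F minus CA gave Recql4 -0.17 to 0.13 and Blm -0.11 to 0.0031, and Rtel1 F/F minus Terf1 F/F gave Pif1 -0.093 to 0.027 and Recql4 -0.21 to 0.040. CA before Cre gave Blm -0.071 to 0.055, and Terf1 F/F before Cre Dhx9 -0.11 to 0.0019.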
